A study of Caenorhabditis elegans with 2 samples.

Results

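Chromatin immunoprecipitation and sequencing (ChIP-seq) had been carried out on whole C. elegans L4 larvae, 48 hours old and of mixed sex, grown from larvae that had been starved at L1 after bleaching. The strain, OP569, carries unc-119(tm4063) and the insertion wgIs569, a transgene that holds unc-119(+) and nhr-111 fused to TY1, EGFP and 3xFLAG. An anti-GFP antibody was used to recover the tagged nuclear hormone receptor NHR-111, and whole animals were used, so tissues are not separated. The series has 1 group of 2 biological replicates, both of this strain, so no genotype, treatment or stage was set against another. Interval lists were available for each replicate and for the replicates pooled, with 30000 intervals each, together with 501 thresholded peaks that had been kept for their irreproducible discovery rate, which scores how well ranks repeat between replicates. The genes described here are cbp-1, mdt-26 and wwp-1, 3 of 19973 protein-coding genes on the nuclear chromosomes. They were chosen by the measured pooled signal of an interval at or near each of them, so their signals and ranks are given as a description, with no test. In assembly ce11, cbp-1 lies at chrIII:9766509-9774825, mdt-26 at chrII:5661181-5665243 and wwp-1 at chrI:537122-542204, all on the plus strand.

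The genes act at different steps of gene regulation and protein turnover. The protein CBP-1 is the worm counterpart of mammalian CBP and p300, coactivators that acetylate histones and are recruited by DNA-bound transcription factors. The protein MDT-26 is a subunit of Mediator, the complex that links such factors to RNA polymerase II. The gene wwp-1 encodes a ubiquitin ligase of the HECT class with WW domains, known in this animal for a role in longevity under dietary restriction. In ChIP-seq an interval is a stretch with an excess of recovered fragments, and its summit is the position of the highest excess.

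The sequences at the summits of cbp-1 and mdt-26 are shown because the strongest peaks differed from their surroundings in base composition. In G and C content the intervals at these starts differed too. The contrast is not particular to these genes. Over all thresholded peaks the median G and C content was 48.5% at the summit and 36.1% in windows 300 bp away. Each sequence is the plus strand of the reference genome from RefSeq, assembly WBcel235, which is the sequence of ce11. They reach 50 bp to either side of the pooled summit, except that the last stops at the base before the annotated start. Capitals mark the CG dinucleotides. The positions are chrIII:9765569-9765669 and chrIII:9766312-9766412 for cbp-1, and chrII:5661749-5661849 and chrII:5661101-5661180 for mdt-26.
cbp-1 strongest peak: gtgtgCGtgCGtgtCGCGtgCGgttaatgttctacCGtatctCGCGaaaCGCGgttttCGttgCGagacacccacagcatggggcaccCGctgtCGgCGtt
cbp-1 interval at the start: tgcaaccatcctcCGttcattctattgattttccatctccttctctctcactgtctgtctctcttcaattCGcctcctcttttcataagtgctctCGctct
mdt-26 strongest peak: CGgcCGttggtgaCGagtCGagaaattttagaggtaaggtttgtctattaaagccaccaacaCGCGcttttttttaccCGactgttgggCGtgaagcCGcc
mdt-26 interval at the start: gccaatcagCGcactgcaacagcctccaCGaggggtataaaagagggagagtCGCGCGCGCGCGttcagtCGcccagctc
The window at the strongest cbp-1 peak held 15 CG dinucleotides, and that at the interval by its start held 3. At mdt-26 the order was the other way, with 9 in the window at the strongest peak and 11 in the full window at the start interval, 9 of them in the 80 bp shown.

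In the window of each of the 3 genes the pooled list held a strong peak away from the start and a weaker interval within 150 bp of it. Only the weaker interval of mdt-26 was in the thresholded list. At wwp-1 the summits of the pair were 202 bp apart, and whether they are separate was not tested. The strong peak lay 890 bp upstream of cbp-1, in an intron 618 bp downstream of the start of mdt-26, and 266 bp upstream of wwp-1. The weaker interval lay 147, 30 and 64 bp upstream of the start of cbp-1, mdt-26 and wwp-1. In the pooled list the strong peak had 3.55 times the signal of the weaker interval at cbp-1, 2.88 times at mdt-26 and 2.97 times at wwp-1. The strongest pooled peak had a signal of 309 at cbp-1 (rank 9), 309 at mdt-26 (rank 8) and 284 at wwp-1 (rank 12). A thresholded summit lay between 3000 bp upstream of the start and the gene end in the 3 genes, the property they were chosen for, and in 3.04% of all protein-coding genes. A pooled summit of any rank lay within 150 bp of the start in 10.5% of protein-coding genes, and a summit among the 1000 strongest in 0.556%. These shares are over all protein-coding genes. No share was taken over genes with a strong peak nearby, so the arrangement is not shown to be particular to these genes. The limits of 150 bp and rank 1000 were set after these values were seen. The sources used here do not give the scale of the deposited signal, and the lists carry no read totals, so the depth behind each value is unknown.

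**Figure D1:**
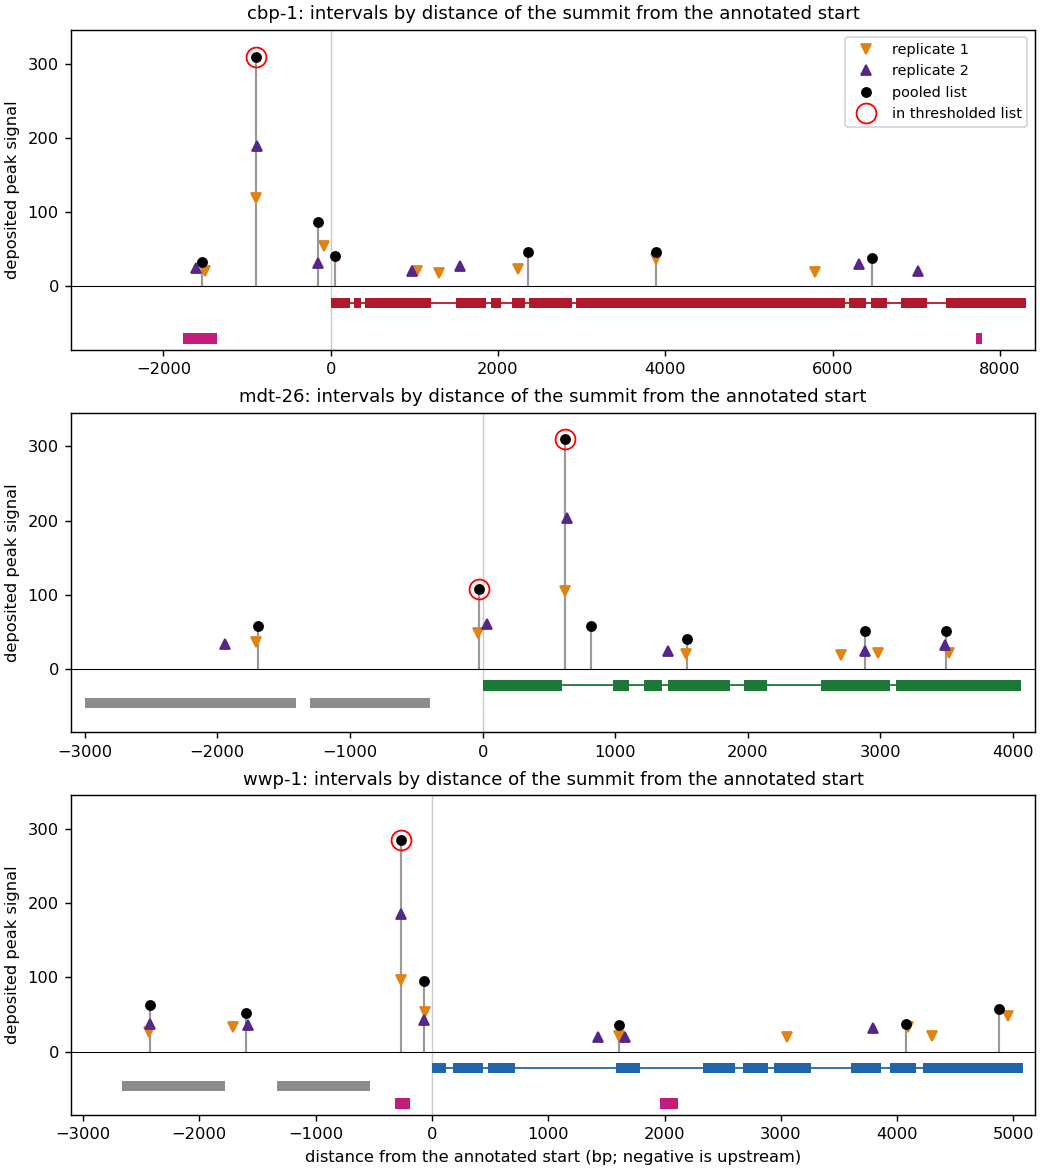
Deposited peak signal of every interval (vertical axis) against the distance of its summit from the annotated start in bp (horizontal axis), for cbp-1, mdt-26 and wwp-1. Black points are the pooled list, orange and purple triangles replicates 1 and 2, and red rings the thresholded list. Boxes below show, from top to bottom, exons of the gene from all transcripts, other protein-coding genes (cut at 3000 bp upstream) and non-coding RNA genes. A single pooled summit stands at 284 or more in each panel, with a lower interval within 150 bp of the start.

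At cbp-1 the strongest peak had a signal of 119 in replicate 1 and 189 in replicate 2, with a mean of 154 ± 49.4 (SD, n = 2). It ranked 13 in replicate 1 and 4 in replicate 2, and the replicate summits lay 13 bp apart. Its pooled interval, chrIII:9765529-9765659, was 131 bp wide and lay in no annotated gene. The nearest protein-coding gene on the upstream side, gcc-2, runs in the other direction and starts 3476 bp from the summit.

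Non-coding RNA genes were nearer to this summit than the start of cbp-1. The start of R10E11.10, on the minus strand, was 510 bp away, and the body of R10E11.12, on the plus strand and overlapping R10E11.10, was 471 bp away. Both are annotated as ncRNA. The pooled list did hold an interval inside R10E11.10, but with a signal of 33.6 at rank 27486, the weakest of the 7 pooled intervals in the cbp-1 window. Its matches were weak too, at 20.3 in the first replicate and 24.6 in the second.

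The interval at the start of cbp-1 was uneven between the replicates. Replicate 1 gave a signal of 55.0 (rank 401) and replicate 2 a signal of 31.9 (rank 7280), with a mean of 43.4 ± 16.3 (SD, n = 2). The pooled rank of 912 was below the thresholded list. The last thresholded peak had a pooled signal of 101.46 and the next interval outside 101.45. The replicate summits here were 65 bp apart. A further pooled interval had its summit 53 bp downstream of the start, in the 5' UTR, with a signal of 41.3, and its nearest replicate intervals were those already matched to the interval at the start.

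Inside cbp-1, the pooled list held 3 other intervals, all weak. That in a coding exon 3893 bp downstream of the start had a signal of 46.0, with a match of 37.5 in replicate 1 and none in replicate 2. That in an intron at 2360 bp had 46.5 pooled and 23.5 in replicate 1, again with no match in replicate 2. That at 6468 bp, in a coding exon, had 38.5 pooled and 30.2 in replicate 2, with no match in replicate 1. None of these 3 was found in both replicates within 200 bp. The ncRNA gene R10E11.13 lies within cbp-1, and the pooled summit nearest to its start was the last of these, 1245 bp away. Outside the pooled list, a pair of weak coding exon intervals matched between the replicates, with summits 65 bp apart. Replicate 1 had 21.2 at 1037 bp and replicate 2 had 20.6 at 972 bp. The other intervals inside cbp-1 that a replicate alone listed had no match in the other replicate.

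At mdt-26 the strongest peak had a signal of 106 in replicate 1 and 203 in replicate 2, with a mean of 154 ± 69.2 (SD, n = 2). Its rank was 21 in replicate 1 and 3 in replicate 2. The summit lay 18 bp past the end of exon 2 of transcript C25H3.6a.1, in an intron of 386 bp, and the pooled interval chrII:5661652-5662044 overlapped that exon. The replicate summits were 18 bp apart and both lay in the intron. No non-coding RNA gene lay near, the closest being F59E12.14 at 12107 bp. Among all 501 thresholded summits, a non-coding start was nearer than any protein-coding start in 60.7%, and this was the case for the strongest peaks of cbp-1 and wwp-1 but not of mdt-26.

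The pooled list gave a second summit inside the same interval at mdt-26, 817 bp downstream of the start, with a signal of 58.1. Within 200 bp of it, the nearest interval in each replicate was that of the strongest peak.

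The interval at the start of mdt-26 was itself in the thresholded list, at rank 396 with a pooled signal of 108. It was the only start interval of the 3 genes in that list. Replicate 1 gave 49.1 (rank 664) and replicate 2 gave 60.6 (rank 459), with a mean of 54.8 ± 8.12 (SD, n = 2). The replicate summits lay 69 bp apart, 32 bp upstream of the start in replicate 1 and 37 bp downstream, in the first exon, in replicate 2. The gene ift-43, named for an intraflagellar transport subunit, begins on the other strand, with 394 bp between the genes and 365 bp from its start to the pooled summit. The pooled summit thus lay between a divergent pair of genes.

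Further along mdt-26, the intervals in coding exons at 1543 and 2883 bp and in the 3' UTR at 3494 bp had pooled signals of 40.1, 50.9 and 50.9. Each had a match in both replicates, with signals from 20.3 to 22.1 in replicate 1 and from 24.4 to 32.5 in replicate 2. Upstream, an interval inside fut-3 had a pooled signal of 57.4, with a match in replicate 1 at 36.0 and none within 200 bp in replicate 2. Replicate 2 did list an interval in the window 1944 bp upstream of the start, with a signal of 34.3.

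At wwp-1 the strongest peak had a signal of 96.7 in replicate 1 and 185 in replicate 2, with a mean of 141 ± 62.4 (SD, n = 2). It ranked 38 in replicate 1 and 5 in replicate 2. Both replicates and the pooled list placed the summit on the same base, position 536856 of chromosome I. That base lies inside Y65B4BR.10, an ncRNA gene of 128 bp on the opposite strand to wwp-1, 75 bp downstream of the start of the ncRNA. The end of icd-2, which encodes a subunit of the nascent polypeptide-associated complex, was 269 bp upstream of the summit.

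The interval at the start of wwp-1 had a signal of 54.0 (rank 432) in replicate 1 and 42.7 (rank 2108) in replicate 2, with a mean of 48.3 ± 8.01 (SD, n = 2). Its pooled rank was 619, outside the thresholded list. The summit was 202 bp from that of the strongest peak, close to the smallest spacing between neighbouring pooled summits anywhere, 199 bp. The summits at the start and at the strong peak were 743 bp apart at cbp-1 and 648 bp at mdt-26. Whether the interval at the start of wwp-1 is separate from the flank of the strong peak was not tested.

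A snoRNA gene, Y65B4BR.12, lies within wwp-1. The nearest pooled summit was 358 bp from its start, in a coding exon, with a signal of 36.3 at rank 23319. At the end of wwp-1, an interval in the 3' UTR had a signal of 48.2 at rank 735 in replicate 1, a pooled signal of 57.6, and no match in replicate 2. Upstream of wwp-1, an interval inside psf-3, a gene for a subunit of the GINS replication complex, had 25.9 in replicate 1 and 37.5 in replicate 2. That between psf-3 and icd-2 had 33.7 and 36.0. Apart from the strong peak, no interval in the wwp-1 window passed a signal of 54.0 in either replicate.

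Over the 3 genes the pooled list held 21 intervals, 7 in each window. For 13 of them the nearest interval within 200 bp in each replicate was a mutual match, for 6 this held in a single replicate and for 2 in neither. By gene the count in both replicates was 3 for cbp-1, 5 for mdt-26 and 5 for wwp-1. The share of mutual matches over all pooled intervals was not taken, so whether these counts are usual is unknown. The strongest peak was matched in both replicates at each of the genes, with summits 13, 18 and 0 bp apart. Of the 501 thresholded peaks, which had been kept for how well their ranks repeat, 495 were matched in both replicates, so this match sets these peaks apart from few others.

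**Figure D2:**
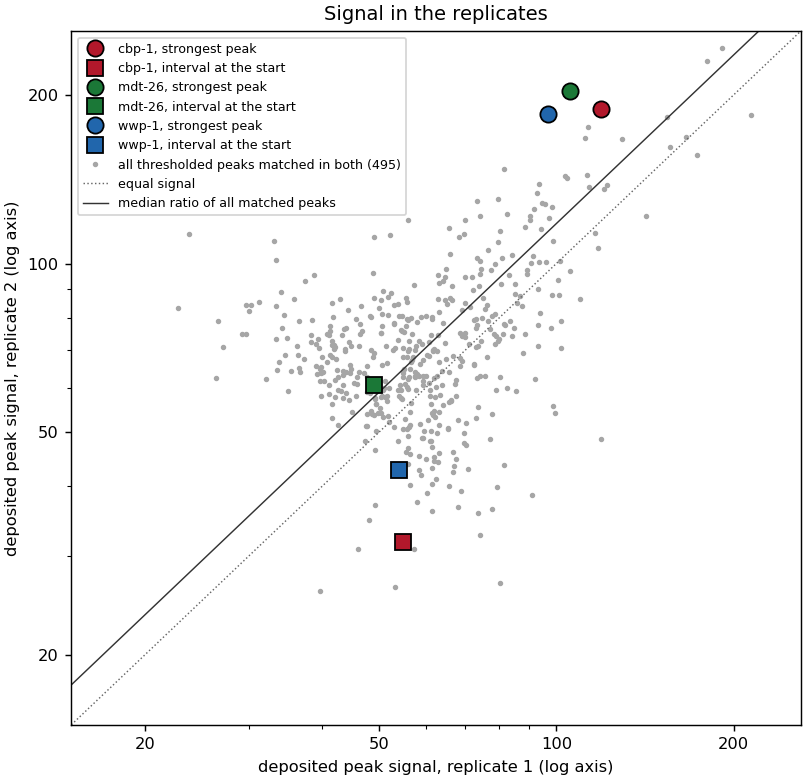
Deposited peak signal in replicate 2 (vertical axis, log) against replicate 1 (horizontal axis, log). Coloured circles are the strongest peaks of cbp-1, mdt-26 and wwp-1, coloured squares the intervals at their starts, and grey points all 495 thresholded peaks matched in both replicates. The circles lie above the line of the median ratio, 1.18, and the squares of cbp-1 and wwp-1 below it.

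The replicates differed in the same direction at the 3 strong peaks. The ratio of replicate 2 to replicate 1 signal was 1.59 at cbp-1, 1.93 at mdt-26 and 1.91 at wwp-1, and the median over the 495 thresholded peaks matched in both replicates was 1.18, with quartiles of 0.948 and 1.48. Of those 495 peaks, 102 had a higher ratio than cbp-1, 35 than mdt-26 and 38 than wwp-1. Among the 15 strongest pooled peaks, whose median ratio was 1.27, these were the 3 highest ratios, followed by 1.55 at the snoRNA gene T19B4.8. At the starts the ratio was 0.580 for cbp-1, 1.23 for mdt-26 and 0.790 for wwp-1. The strong peak was therefore 2.17, 2.15 and 1.79 times the start interval in replicate 1 at cbp-1, mdt-26 and wwp-1, and 5.93, 3.36 and 4.33 times in replicate 2. With 2 replicates of 1 group, these ratios have no error of their own and were not tested.

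The thresholded peaks nearest in signal to each strong peak were then listed. The measure, built from the signals the genes were chosen by, was the Euclidean distance between log2 signals over the 2 replicates, among all matched thresholded peaks. For mdt-26 the closest peaks were those at wwp-1 (distance 0.19) and cbp-1 (0.20), listed under the nearest starts Y65B4BR.10 and R10E11.10. For wwp-1 they were mdt-26 (0.19) and T19B4.8 (0.24). For cbp-1 they were the snoRNA genes T19B4.8 (0.13) and Y75B12B.12 (0.19). Few peaks are as strong as these, so a small distance partly restates their rank.

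The pooled intervals at the strong peaks were narrower than most, by little at mdt-26. Widths were 131 bp at cbp-1, 393 bp at mdt-26 and 142 bp at wwp-1, while 481 of the 501 thresholded peaks had the largest width, 404 bp. Of the 20 narrower peaks, 12 were among the 15 strongest. In replicate 1 the widths were 404, 162 and 404 bp and in replicate 2 they were 404, 284 and 154 bp for cbp-1, mdt-26 and wwp-1. Width thus varied between the lists for the same peak, while the summit moved by at most 19 bp from the pooled one.

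**Figure D3:**
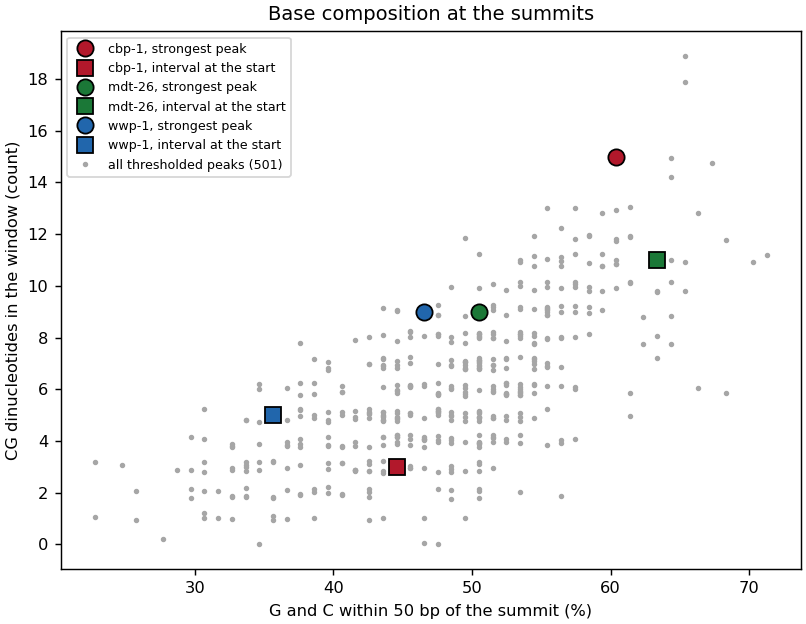
CG dinucleotides (vertical axis, count) against G and C content (horizontal axis, %) in the 50 bp to either side of the summit. Coloured circles are the strongest peaks of cbp-1, mdt-26 and wwp-1, coloured squares the intervals at their starts, and grey points all 501 thresholded peaks, with a small vertical jitter. The cbp-1 circle stands at 15 CG dinucleotides and 60.4%, and the mdt-26 and wwp-1 circles at 9.

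Base composition was not used to choose the genes. In the 50 bp to either side of the strongest summit, G and C made up 60.4% at cbp-1, 50.5% at mdt-26 and 46.5% at wwp-1, against a median of 48.5% over all thresholded summits (quartiles 42.6 and 53.5%). The count of CG dinucleotides was 15, 9 and 9, against a median of 6 (quartiles 4 and 8). Only 2 of the 501 thresholded peaks held more CG dinucleotides than cbp-1, and 69 held more than mdt-26 and wwp-1. In windows of the same length centred 300 bp to the left and right, cbp-1 had 34.7 and 38.6% G and C with 2 and 3 CG dinucleotides. Those of mdt-26 had 22.8 and 39.6% with 1 and 4, and those of wwp-1 33.7 and 45.5% with 4 and 5. The strongest summits were richer in G and C than both of their neighbouring windows, by little on the right of wwp-1. Over all thresholded peaks the windows 300 bp away had a median of 36.1% G and C and of 3 CG dinucleotides, also below the medians at the summits.

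The intervals at the starts were less alike in G and C content than the strongest peaks. That of mdt-26 held 11 CG dinucleotides with 63.4% G and C, that of cbp-1 held 3 with 44.6%, and that of wwp-1 held 5 with 35.6%. The start intervals of cbp-1 and mdt-26 were also richer in G and C than both windows 300 bp away. Those windows had 27.7 and 36.6% at cbp-1, and 33.7 and 36.6% at mdt-26. At wwp-1 the window 300 bp to the right was richer than the summit, with 12 CG dinucleotides and 53.5% G and C.

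Motifs were looked for up to 100 bp to either side of each summit, on both strands. The first was GTTCGANNC, the core of the B box that recruits RNA polymerase III factors inside tRNA genes, and the second AGGTCA, the half-site bound by many nuclear receptors. These 2 were kept from 15 words looked at after the sequences had been seen, so the shares are descriptions. Of the 15, 6 occurred in at least 1 of the 6 windows at the 3 genes. GTTCGANNC was found in none of the 6 windows at cbp-1, mdt-26 and wwp-1, and in 24.8% of all thresholded windows, 62.4% of the 117 nearest to a tRNA start and 3.09% of the 194 nearest to a protein-coding start. AGGTCA was found in 1 of the 6, the strongest peak of wwp-1, starting 30 bp to the right of the summit, and in 7.58% of all thresholded windows, 10.3% of those nearest to a tRNA start and 5.15% of those nearest to a protein-coding start. The words found in most of the 6 windows were GAGAGNG with A or C at N, in 3 of 6 and in 13.8% of all thresholded windows, and TGGNNCA, in 3 of 6 and in 27.7%. The absence of a match says only that these letters do not occur in the window.

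Other genes of the same complexes and classes were taken from 3 lists with 49 names in all, of which 46 matched a protein-coding gene. The HECT ligase list also holds ubc-18, which encodes an E2 enzyme and not a ligase. The acetyltransferase list also takes in members of acetyltransferase complexes. Of the 43 besides cbp-1, mdt-26 and wwp-1, 3 had a thresholded summit from 3000 bp upstream to the gene end. They were 2 of 26 Mediator genes, 0 of 9 genes of the acetyltransferase list and 1 of 8 genes of the HECT ligase list. The share over all protein-coding genes was 3.04%. The windows lengthen with the gene, and the median gene length in the lists, 4192, 7643 and 10376 bp, was above the 2027 bp of all protein-coding genes. Among genes with an interval and without the 3 genes, the median of the strongest pooled signal per gene was 60.1 for Mediator. It was 38.5 for the acetyltransferase list and 72.1 for the HECT ligase list, beside 50.8 for all protein-coding genes.

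**Figure D4:**
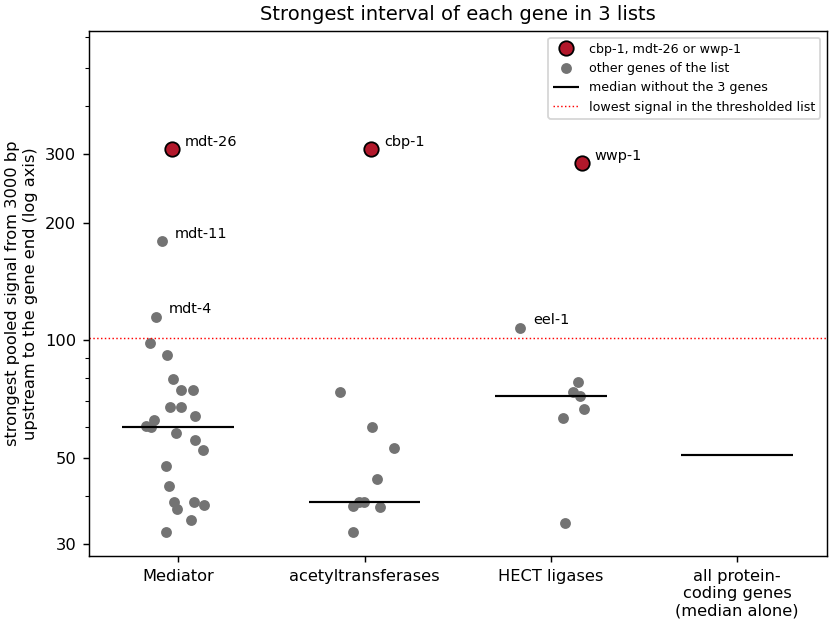
Strongest pooled signal in the window of each gene (vertical axis, log) for the Mediator, acetyltransferase and HECT ligase lists and, as a median alone, all protein-coding genes. Red points are cbp-1, mdt-26 and wwp-1, grey points the other genes with at least 1 interval, black bars the medians without the 3 genes, and the dotted line the lowest thresholded signal. Only mdt-4, mdt-11 and eel-1 lie above the dotted line among the grey points.

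These 3 other genes had peaks at different places relative to their starts. The Mediator gene mdt-11 had a pooled signal of 179 at rank 69, with 66.1 in replicate 1 and 104 in replicate 2, but its summit was 2910 bp upstream and lay 325 bp from the start of wip-1. The Mediator gene mdt-4 had 115 at rank 313, with 62.2 in replicate 1 and 53.1 in replicate 2, and its summit was 50 bp from the start of the snoRNA gene ZK546.18. The HECT ligase gene eel-1 had 108 at rank 394, with 63.1 and 45.9 in the replicates, and its own start was the nearest, 648 bp from the summit. In the acetyltransferase list, the relatives cbp-2 and cbp-3 had the same strongest pooled interval, with a signal of 38.5 and no match in replicate 1. The partner E2 enzyme of WWP-1, encoded by ubc-18, had no interval in its window, and neither did mdt-10 or mdt-18.

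Both replicate lists were made against the same control alignment, and no control library or other tagged protein was analysed here. Whether the peaks at cbp-1, mdt-26 and wwp-1 depend on NHR-111 was not tested.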

How the data were processed

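Per the labels, coordinates are in assembly ce11. Per the text files deposited with the samples, intervals were called on each replicate and on both pooled, against a shared control alignment, and these 3 lists gave the thresholded one. Neither the caller nor its settings nor the threshold value is stated in the sources used here. Each interval carries a signal value deposited by the authors, on a scale not given, and a deposited −log10 q-value, which was used only for an alternative ranking. Summits came from the deposited offset. The 501 thresholded peaks were the 501 strongest pooled intervals. Depth is unknown.

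Intervals were ranked by signal within each list, without scaling between lists, and summits within 200 bp were matched to the nearest. Every interval lay within the chromosomes of WBcel235. Genes and transcripts came from Ensembl release 115 of that assembly (46890 genes, 24789 of them non-coding RNA genes), and a summit in several parts over transcripts was called 5' UTR, coding exon, 3' UTR or intron in that order. Composition was read within 50 bp and motifs within 100 bp of summits. Python 3.11.15, pandas 2.3.3 and numpy 2.4.6 were used, and window counts were tested on simulated data. Replicates were taken from the labels. The genes, lists and alternatives were chosen with earlier results of these data known, and the motifs, CG counts and the limits of 150 bp and rank 1000 after the values were seen, so no test was run. The genes named were cbp-1, mdt-26 and wwp-1, genes at or nearest to their thresholded summits, list genes with a thresholded summit, and the 2 peaks nearest in log2 signal. Genes at their other intervals, neighbouring genes and list genes with no interval were named after their values were seen.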

Additional observations from a re-analysis of the deposited data

How the results depend on the processing

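Of 84 alternative values for 21 results, 64 moved by less than the spread between replicates or, for counts, by no more than 1.5 times, and 20 moved further. The 64 include the mean signals with a replicate left out. Those could not move further, since each of 2 values always lies within their SD of the mean. The log2 ratios of replicate 2 to replicate 1 kept their sign, and the other results cannot be negative. The thresholded summits in the window numbered 1 for cbp-1, 2 for mdt-26 and 1 for wwp-1. With the 501 strongest intervals of a single replicate in place of the thresholded list they ranged from 1 to 2 for each gene, since the start intervals of cbp-1 and wwp-1 were among the 501 strongest in replicate 1 and that of mdt-26 was not. With the 250 strongest thresholded peaks mdt-26 had 1. The rank of the strongest peak ranged from 4 to 13 for cbp-1, 3 to 21 for mdt-26 and 5 to 38 for wwp-1 over the single replicates. By −log10 q the strongest peaks of cbp-1, mdt-26 and wwp-1 all ranked 1, in a tie of 83 pooled intervals.

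The distance of the cbp-1 summit to the nearest non-coding RNA gene was 510 bp when measured to the start, and 471 to 484 bp with single replicates. For mdt-26 it was 12108 to 12126 bp with single replicates, and for wwp-1 it was 75 bp to the start. The Mediator list had 1 gene with a summit when the window ran only 1000 bp before and 200 bp past the start, and 3 to 5 with single replicates. The HECT ligase list had 1 with the 250 strongest peaks and 1 to 2 with single replicates. G and C within 100 bp of the summit was 55.7% at cbp-1, 54.7% at mdt-26 and 42.8% at wwp-1, and within 50 bp of the single replicates' summits 58.4 to 60.4% at cbp-1 and 49.5 to 50.5% at mdt-26. No paired analysis was possible because there was a single group.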
